A study of Mus musculus with 9 samples.

Results

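The apolipoprotein L genes are described here in mouse lung dendritic cells before and after a period in culture. The 10 members are Apol6, Apol7a, Apol7b, Apol7c, Apol7e, Apol8, Apol9a, Apol9b, Apol10b and the pseudogene Gm8221, taken by symbol from 45535 rows of the deposited table that carry a gene symbol. They were chosen because their levels had already been seen to differ between the groups of this comparison, so their differences are given as a description, without p-values, and support nothing further. Lungs of C57/BL6j mice were taken after 7 days of bleomycin, a drug that injures the lung and is used to model fibrosis, and were digested with collagenase. Magnetic beads were used to isolate cells carrying CD103, the integrin chain encoded by Itgae. In 5 samples the RNA was extracted directly (before culture). The 4 other samples were first kept for 18 h ex vivo in RPMI, to which 10% fetal bovine serum and 1% penicillin and streptomycin had been added (after culture). All 9 samples share the bleomycin treatment and the strain, and no untreated lung is used here. The labels do not say how many mice went into a sample, so the spread between samples may be technical in part.

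Apolipoprotein L proteins are helical proteins that bind or insert into membranes. Human APOL1 circulates on high-density lipoprotein and kills trypanosomes by forming pores. Several members of the family are induced by interferons. In mouse type 1 conventional dendritic cells (cDC1), APOL7C is known to be recruited to phagosomes and to open them, so that engulfed antigen reaches the cytosol and can be presented on MHC class I (cross-presentation).

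The members lie in 1 cluster on chromosome 15 (GRCm38, GENCODE M21), from Apol6 at chr15:77044729-77057106 to Apol8 at chr15:77747798-77757003, a span of 712 kb. Apol7c is at chr15:77524852-77533316 on the minus strand and Apol10b at chr15:77583819-77596125, also on the minus strand. Gm8221, annotated as an unprocessed pseudogene, is at chr15:77621834-77626637 on the plus strand, between Apol10b and Apol7e (chr15:77698857-77719285). The other 9 members are annotated as protein coding.

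The genes arose from each other by duplication, and their transcripts share stretches that a short read cannot assign. Of the 50-base windows in the longest coding transcript of Apol7b, 75.6% also occurred in transcripts of other genes, most of all Apol7e. For Apol7e the share was 76.0%, most of all with Apol7b. The Apol9a and Apol9b transcripts shared 57.5% and 51.4% of their windows, only with each other. For Apol7c the share was 26.2%, and 16.3% of all its windows occurred in Gm8221. For Gm8221 it was 45.1%, and 30.8% of its windows occurred in Apol7c. The share was 15.7% for Apol7a and 6.11% for Apol10b, and no window of Apol6 or Apol8 was shared. Values of Apol7b, Apol7e, Apol9a, Apol9b and Gm8221 are therefore uncertain, since reads of a neighbour may be counted in them. Apol6 overlaps Mb, Apol7a overlaps Gm20688, and Apol7b overlaps 4930571N24Rik and Gm6506, and the counting is not known to use strand.

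The promoters are shown so that near copies with different levels can be compared. RefSeq (GRCm38.p6) gave a start site for 8 of the 10 members. Each line below runs 5′ to 3′ on the gene's own strand, from 140 bases before to 10 bases after the start (for Apol9a and Apol9b, the more upstream of their start sites). Capitals mark matches to the interferon-stimulated response element (ISRE), searched as GAAA, any 2 bases and GAAA, or on the other strand as TTTC, any 2 bases and TTTC. They cover 2 overlapping matches in Apol7c, Apol7e, Apol9a and Apol9b.
Apol7c: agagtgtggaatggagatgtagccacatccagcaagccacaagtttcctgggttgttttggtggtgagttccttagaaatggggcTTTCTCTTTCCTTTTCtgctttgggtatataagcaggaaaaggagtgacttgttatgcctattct
Apol7e: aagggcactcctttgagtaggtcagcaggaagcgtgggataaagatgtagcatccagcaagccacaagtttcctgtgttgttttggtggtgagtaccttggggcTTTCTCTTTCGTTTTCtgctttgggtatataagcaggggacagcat
Apol7b: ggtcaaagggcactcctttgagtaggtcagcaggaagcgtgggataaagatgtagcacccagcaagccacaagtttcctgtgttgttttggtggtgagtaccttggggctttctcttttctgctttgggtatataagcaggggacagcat
Apol10b: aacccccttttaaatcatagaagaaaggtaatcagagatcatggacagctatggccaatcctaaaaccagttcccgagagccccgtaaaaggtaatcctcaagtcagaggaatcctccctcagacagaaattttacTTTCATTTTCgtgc
Apol9a: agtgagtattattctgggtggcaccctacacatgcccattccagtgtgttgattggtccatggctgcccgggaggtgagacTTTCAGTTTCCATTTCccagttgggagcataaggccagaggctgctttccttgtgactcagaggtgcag
Apol9b: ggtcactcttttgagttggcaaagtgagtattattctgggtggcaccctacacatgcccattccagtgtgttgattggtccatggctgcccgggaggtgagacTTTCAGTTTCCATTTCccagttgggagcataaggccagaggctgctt
Apol8: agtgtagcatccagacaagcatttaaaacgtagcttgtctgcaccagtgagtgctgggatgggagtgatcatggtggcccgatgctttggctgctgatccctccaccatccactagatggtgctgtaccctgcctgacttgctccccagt
The Apol7c line is chr15:77533306-77533455, the Apol7e line chr15:77698749-77698898 and the Apol7b line chr15:77447451-77447600. The Apol10b line is chr15:77596116-77596265, the Apol9a line chr15:77411071-77411220, the Apol9b line chr15:77728932-77729081 and the Apol8 line chr15:77757001-77757150.

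An ISRE match stood in 5 of the 8 promoters (250 bases before to 50 after the start), namely those of Apol7c, Apol7e, Apol9a, Apol9b and Apol10b. Of all 32851 promoters in the table, 3.44% held such a match, and of the promoters of tested genes 3.18%. The 5 promoters are not independent of each other, since upstream identity was 83.8% for Apol9a and Apol9b and 71.7% for Apol7c and Apol7e. The 3 other Apol genes of the cluster with a promoter in the table, Apol10a, Apol11a and Apol11b, also held an ISRE match. Apol10a and Apol11a were at or near the floor of 3 reads in these samples. Apol11b held 7 reads in all before culture and 48 after, and its groups did not overlap, but its mean was below 10 and it was not fitted. The first match began 55 bases before the start in Apol7c, 36 in Apol7e, 59 in Apol9a and 37 in Apol9b, and that of Apol10b lay across the start site itself. The promoter of Apol7b was 95.7% identical to that of Apol7e over an alignment of their 250 upstream bases, yet held no ISRE match. Its closest ungapped string missed the ISRE by 1 of the 8 fixed letters. This is not a single changed letter between the near copies, since the Apol7b line lacks some of the bases marked in capitals in the Apol7e line. A miss by at most 1 letter is common, at 35.4% of all promoters, and Apol8 also fell in that class. The promoter of Apol7a differed at 2 letters or more. Counted by gene rather than by promoter, and leaving out the members, an ISRE match in any promoter was held by 4.19% of the genes higher after culture, 3.81% of those lower and 3.34% of those that did not pass the test. A match is a string of letters and not a shown binding site.

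Other motifs were searched on both strands in the same windows, and none of the matches named next overlaps an ISRE match. The letters TGANTCA (AP-1) stood in the Apol9a and Apol9b promoters and in 7.81% of all promoters (5.7% of those of tested genes). The letters GCGTG (the core bound by the aryl hydrocarbon receptor) stood in Apol7b and Apol7e and in 32.4% of all (46.9% for tested genes). A gamma-activated site (TTC, any 3 bases, GAA) or an Ets-IRF composite element (GGAA, any 2 bases, GAAA) was in no member promoter, against 8.3% and 2.72% of all (6.86% and 2.42% for tested genes). Apol10a, Apol11a and Apol11b each held a gamma-activated site. The loose NF-kB pattern (GGG, any 5 bases, CC) was in 6 of the 8 and in 50.8% of all (64.9% for tested genes).

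Levels are normalized read counts, that is reads per gene divided by a depth factor for each sample, so 1 read was worth 0.758 to 1.79. Depth in named rows was 14.7 to 35.3 M reads per sample. Genes were tested with limma where their mean over the 9 samples was 10 or more, which held for 18202. Of these, 68.8% passed an adjusted p of 0.05, with 34.2% higher and 34.6% lower after culture, and the groups did not overlap for 57.3%. The median log2 fold change over these genes was 0.0065. Of the 10 members, 8 reached that mean, and of these 6 were called higher and 1 lower, and the groups did not overlap for 6. Apol9a and Gm8221 had a mean under 10 before culture and reached it only through the samples after culture. These counts carry no weight, since the members were chosen on this contrast.

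**Figure D1:**
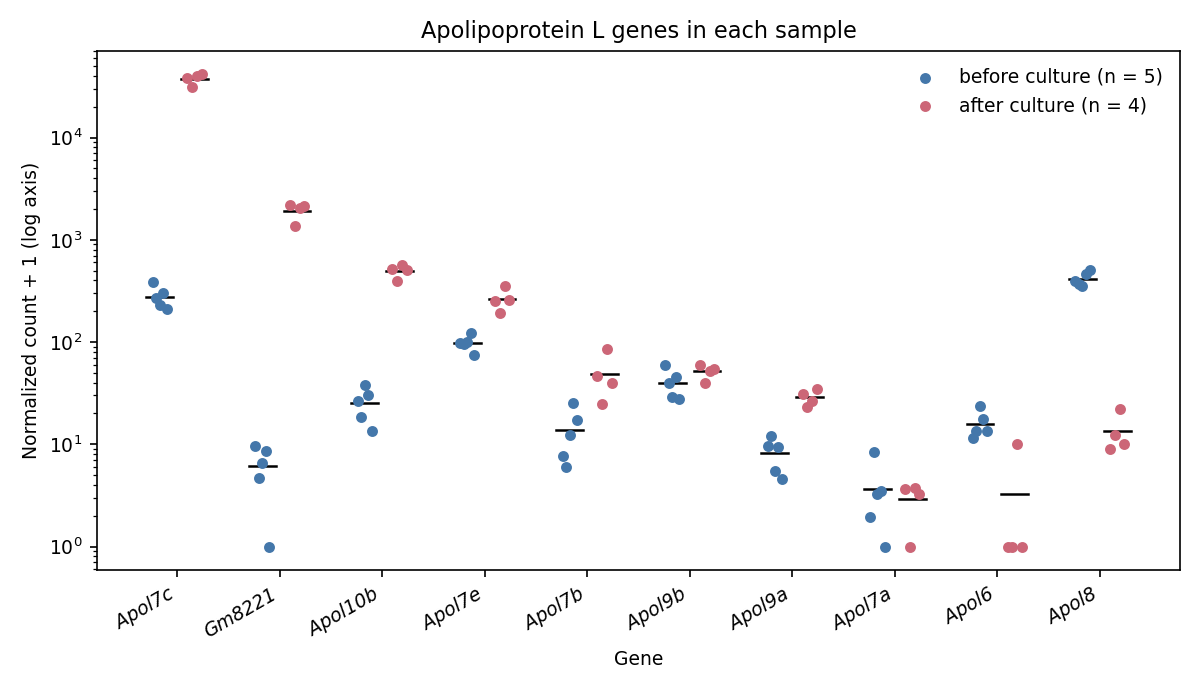
Normalized count + 1 (log axis) of the 10 apolipoprotein L genes (x axis) in each sample, with blue points for the 5 samples before and red points for the 4 samples after culture and a black bar at each group's mean. Apol7c and Gm8221 lay furthest above their level before culture (means 277 to 37733 and 5.08 to 1930), while Apol8 lay below it (414 to 12.3).

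Apol7c, the phagosome-opening member, was the most abundant after culture. Its normalized counts were 382, 270, 228, 298 and 209 in replicates 1 to 5 before culture, and 38274, 31168, 40034 and 41459 in replicates 1 to 4 after culture. Every sample after culture was far above every sample before, and replicate 2 was the lowest of its group. The means were 277 ± 68.0 (SD, n = 5) and 37733 ± 4567 (SD, n = 4), a ratio of 136, with a log2 fold change of 7.11 (SE 0.150) on the scale of log2(value + 1). In reads, Apol7c took 0.00108 ± 0.000276% of a library before culture and 0.150 ± 0.0229% after (SD).

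Gm8221 is the pseudogene whose sequence overlaps that of Apol7c. It held 8.57, 3.71, 5.61, 7.53 and 0 before culture and 2193, 1376, 2031 and 2122 after. The value before culture rests on 26 reads in all 5 samples. Set against Apol7c in the same sample, Gm8221 counts were 1.72 ± 1.07% before culture (SD, n = 5) and 5.08 ± 0.538% after (SD, n = 4). The single samples ran from 0 to 2.53% and from 4.41 to 5.73%. The ranges of this ratio did not overlap. The share of these reads that came from Apol7c transcripts was not tested.

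Apol10b, a coding gene between Apol7c and Gm8221, is the member least affected by shared windows among those that were higher. It held 25.7, 17.3, 37.0, 29.3 and 12.5 before culture and 515, 390, 561 and 503 after. Groups did not overlap, and the ratio of means was 20.2 (24.4 ± 9.69 against 492 ± 72.5, SD, log2 fold change 4.36, SE 0.265). As for Apol7c, replicate 2 was lowest after culture and replicate 5 lowest before.

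Apol7e and Apol7b form a pair of near copies. Apol7e held 97.1, 94.0, 99.8, 122 and 73.4 before culture and 249, 191, 352 and 256 after. The groups were apart, with a ratio of 2.69 (log2 fold change 1.40, SE 0.185). Apol7b held 6.67, 4.95, 11.2, 24.3 and 16.1 before and 45.9, 23.5, 84.6 and 38.8 after culture. Here replicate 4 before culture, at 24.3, lay above replicate 2 after culture, at 23.5, so the groups overlapped, and the ratio of means was 3.81 (log2 fold change 1.90, SE 0.452). Replicate 3 was the highest of its group after culture for both genes. Apol7b stood at 13.04 ± 7.55% of Apol7e before and 17.5 ± 5.04% after culture (SD), with overlapping ranges.

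Apol9a and Apol9b are interferon-induced genes whose upstream sequences were 83.8% identical. Apol9a held 8.57, 11.1, 4.49, 8.37 and 3.58 before culture and 30.03, 22.0, 25.5 and 33.5 after, with no overlap (ratio 3.84, log2 fold change 1.88, SE 0.350). Apol9b held 58.1, 38.4, 28.0, 44.4 and 26.8 before and 59.2, 38.7, 51.0 and 53.2 after culture. Its groups overlapped, the ratio was 1.29 and its log2 fold change of 0.40 (SE 0.253) did not pass the threshold. Apol9a counts were 18.4 ± 6.28% of Apol9b counts before (range 13.3 to 29.0%) and 55.1 ± 6.01% after culture (highest 62.9%). Every sample after culture was above every sample before. More than 50% of each transcript is shared with the other, and how the counting split such reads is not known.

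Apol8, listed in RefSeq also under the older symbol Apol2, moved the other way. It held 393, 369, 349, 457 and 501 before culture and 7.95, 11.4, 20.9 and 9.12 after. Every sample after culture was below every sample before, at 414 ± 63.6 against 12.3 ± 5.90 (SD), which is 33.5-fold lower (log2 fold change −5.04, SE 0.240). No 50-base window of Apol8 occurs in another gene.

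Apol6 and Apol7a did not reach the mean of 10 and were not fitted. Apol6 held 10.5, 12.4, 22.4, 16.7 and 12.5 before culture and 0, 0, 9.10 and 0 after. Its groups did not overlap, but the level after culture rests on 10 reads, all in replicate 3. In the other samples after culture, 0 reads allow a normalized count of up to 2.27 to 2.65 (3 reads, counting error only). Apol7a, listed in RefSeq also as Apol3, was near the floor in both groups, at 0.952, 7.42, 2.24, 2.51 and 0 before and 2.65, 0, 2.73 and 2.28 after culture. No difference was detectable for it at this depth.

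The table holds 4 further Apol rows, each below the mean of 10. Apol11b held 0, 0, 0, 4.18 and 3.58 before and 5.30, 8.34, 7.28 and 17.5 after culture, that is 7 reads against 48 in all. Apol7d, a noncoding gene on chromosome 1, held 0.952 to 7.16 before and 4.42 to 9.88 after. Apol10a had 1 read in the 9 samples and Apol11a had 4, and both are at or near the floor of 3 reads.

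Per kilobase of transcript, the make-up of the family turned over. Before culture, Apol8 made up 38.8 ± 7.13% and Apol7c 34.7 ± 4.98% of the summed level of the 10 genes per kilobase (SD, n = 5). Their order was not the same in all samples, and replicate 1 had more Apol7c. Apol7e followed at 11.5 ± 1.70%. After culture Apol7c made up 89.6 ± 0.887% (SD, n = 4) and Apol8 0.0217 ± 0.00974%. The summed level per kilobase went from 384 ± 48.8 to 20465 ± 2596 normalized counts.

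In the order of levels per kilobase before culture, Apol8 (148) and Apol7c (135) came first, followed by Apol7e (44.1), Apol9b (24.9), Apol10b (10.5), Apol6 (6.44), Apol7b (5.68), Apol9a (4.72), Gm8221 (4.58) and Apol7a (1.10). After culture the order was Apol7c (18317), Gm8221 (1739), Apol10b (212), Apol7e (119), Apol9b (32.1), Apol7b (21.6), Apol9a (18.1), Apol8 (4.41), Apol6 (0.983) and Apol7a (0.801). Before culture Apol8 and Apol7c differed by less than their spread between samples, as did each pair of neighbours in the order from Apol6 to Gm8221. Apol10b was above Apol6 in every sample before culture except replicate 5 (5.39 against 5.41 per kilobase). The means of Apol10b and Apol6 differed by less than the spread of Apol10b but by more than that of Apol6. After culture Apol9b, Apol7b and Apol9a differed from their neighbour by less than the spread of Apol7b, and Apol6 and Apol7a by less than theirs. The 5 genes from Apol7c to Apol9b were each separated by more than the spread.

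**Figure D2:**
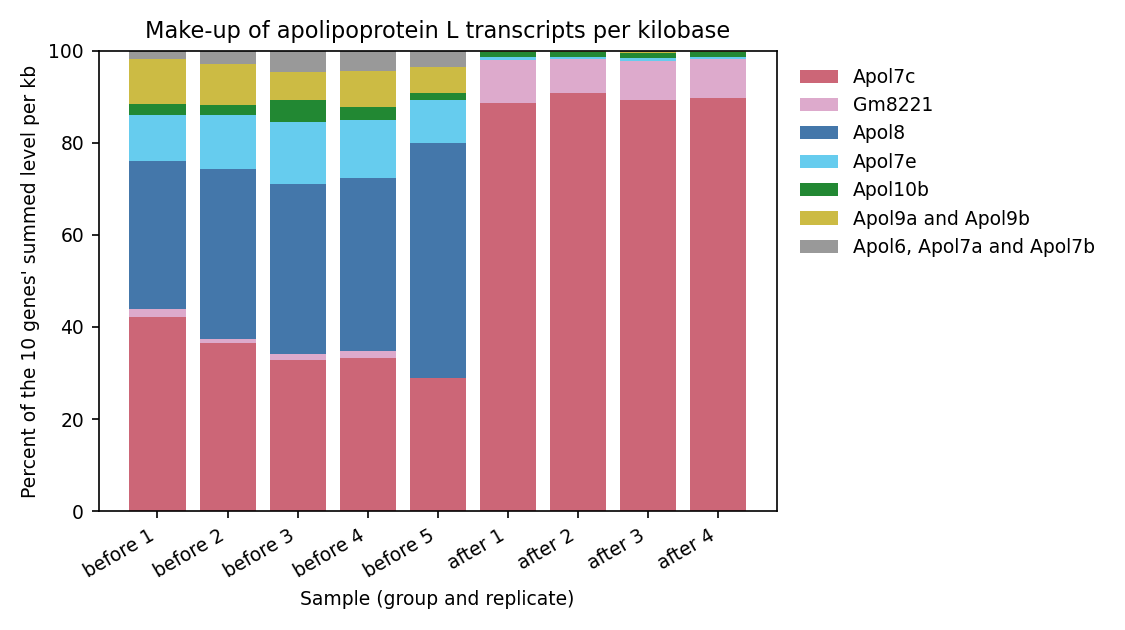
Each bar is 1 sample and its colours give the percent of the 10 genes' summed level per kilobase of transcript held by each gene or group of genes. Before culture Apol8 and Apol7c held similar parts (38.8 and 34.7% on average), and after culture Apol7c held 88.6 to 90.7% in every sample.

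The 6 members that were higher after culture shared their lowest sample within that group, but not their highest. Replicate 2 was the lowest of the 4 samples for all 6 of them, while it was the lowest for 37.5% of the 6225 genes called higher overall. Before culture, replicate 5, the shallowest library, was the lowest of the 5 for 5 of these 6, against 22.5% of the 6225 genes. These genes share reads and samples, so they are not 6 independent observations.

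Genes next to the cluster were compared because members lie side by side. Of 61 annotated genes within 500 kb of a member, 39 had a row and 27 were tested, of which 9 were higher and 9 lower at a limma adjusted p under 0.05, close to the share over all genes. Their median log2 fold change was −0.03. The largest rises were in Zfp251 (164 ± 8.72 against 303 ± 13.5), Commd5 (104 ± 14.1 against 172 ± 28.7) and Slc39a4, a zinc importer (171 ± 36.1 against 244 ± 13.1). The largest falls were in Recql4, a DNA helicase (167 ± 31.5 against 51.1 ± 17.2), the ribosomal protein gene Rpl8 (8886 ± 1557 against 3370 ± 322) and Arhgap39 (1827 ± 227 against 865 ± 40.4). Of 8 other genes inside the span of the members only Rbfox2 was tested, and it was lower (log2 fold change −0.86).

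The nearest genes with a row that lie wholly outside the cluster did not pass the test. Myh9, a nonmuscle myosin heavy chain gene, lies 3584 bases beyond Apol8 and held 59005 ± 5546 before and 58280 ± 4328 after culture (log2 fold change −0.02, SE 0.103). On the other side 1110038F14Rik, 93750 bases from Apol6, held 211 ± 39.1 and 219 ± 34.8 (log2 fold change 0.06, SE 0.162). Mb, which overlaps Apol6 and reaches beyond it on that side, was not tested. Apol8, only 3584 bases from Myh9, had a log2 fold change of −5.04.

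**Figure D3:**
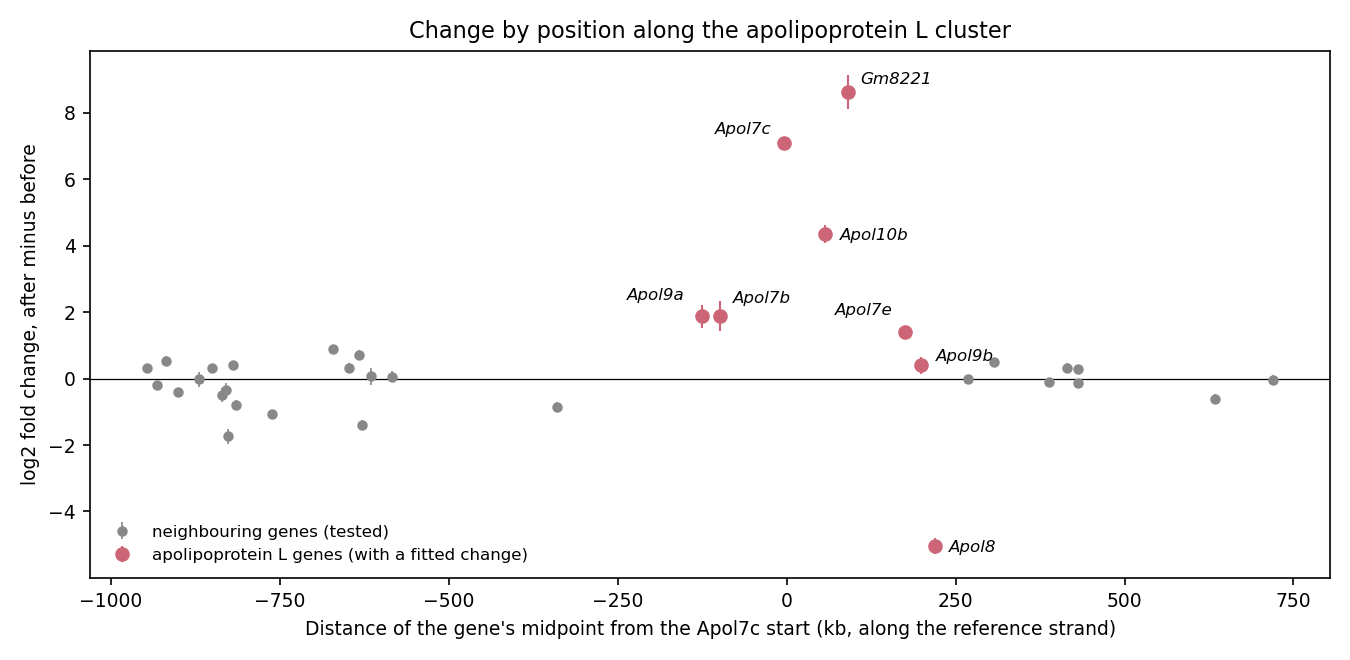
Log2 fold change after against before culture (y axis, error bars are standard errors) against the distance of each gene's midpoint from the Apol7c start in kb (x axis), for 8 apolipoprotein L genes in red and 27 neighbouring genes in grey. The neighbours lie between −1.74 and 0.88, whereas Gm8221, Apol7c and Apol10b lie at 8.63, 7.11 and 4.36 and Apol8 at −5.04.

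Interferon-stimulated genes were set beside the members because of the ISRE matches and because some members are known interferon targets. Of 30 such genes, 15 were higher and 3 lower after culture and 12 did not pass (limma adjusted p, median log2 fold change 0.53). The largest rises were in Oasl2 (1016 ± 124 against 4627 ± 1535), Oasl1 (534 ± 65.8 against 1954 ± 237) and Usp18, which restrains interferon receptor signalling (400 ± 52.2 against 1417 ± 144). Ifi205 (4447 ± 398 against 243 ± 50.6) and the chemokine gene Cxcl10 (814 ± 106 against 113 ± 24.6) fell. The count of lower genes was 6 without replicate 2 after culture. Isg15 and Ifit3, commonly used readouts of the response and chosen here after their values were seen, did not pass (480 ± 91.0 against 528 ± 280, and 311 ± 53.2 against 311 ± 157). None of the 30 reached the log2 fold change of Apol10b, Apol7c or Gm8221, which carries no weight because the members were chosen on this contrast.

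Of 18 genes of the interferon-gamma response, 9 were higher and 4 lower (median 0.25), against 34.2% and 34.6% of all tested genes. The guanylate-binding protein genes Gbp5 (561 ± 28.8 against 7334 ± 1121), Gbp2 (1038 ± 135 against 10366 ± 343) and Gbp4 (751 ± 258 against 3029 ± 885) rose most. Cxcl9 (552 ± 53.1 against 11.6 ± 4.42), Iigp1 (745 ± 372 against 88.9 ± 21.5) and Ciita, the MHC class II transactivator (9578 ± 1147 against 1525 ± 245), fell most. Of 20 receptors and sensors upstream of interferon, 10 were higher and 7 lower (median 0.21), against the same shares of all tested genes. Tlr7, Tlr4 and Il10rb were 2.74-, 2.29- and 1.71-fold higher, and Tlr3, Ifnlr1 and Myd88 were 10.1-, 2.77- and 2.53-fold lower.

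Of 23 factors that read the searched motifs, 7 were higher and 10 lower (median −0.13), against 34.2% and 34.6% of all tested genes. Stat2 (4352 ± 349 against 4346 ± 637) and Irf9 (2187 ± 89.3 against 2383 ± 315), which encode parts of the complex that binds the ISRE, did not pass. Relb, a subunit of NF-kB, rose from 3025 ± 221 to 10029 ± 739 and Stat3 from 12822 ± 1110 to 23131 ± 893. The AP-1 genes Fos, Jun and Junb were 49.2-, 10.9- and 8.26-fold lower. Irf8, the factor that specifies cDC1, fell from 18457 ± 1783 to 8465 ± 404 and Ahr, the aryl hydrocarbon receptor gene, from 9048 ± 573 to 2905 ± 178.

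Among 23 cross-presentation and phagosome oxidase genes, 8 were higher, 6 lower and 9 not past the threshold (median 0.09). Over all tested genes 34.2% were higher and 34.6% lower. The oxidase subunits Cybb (10391 ± 1247 against 28574 ± 5413) and Ncf1 (6658 ± 847 against 16218 ± 1138) and the proton channel Hvcn1 (955 ± 185 against 3247 ± 457) rose most. Wdfy4, which cDC1 need for cross-presentation, was 15.9-fold lower. Clec9a, the receptor for dead cells, was 8.75-fold and Rab43 3.07-fold lower. Ncf4, an oxidase subunit that is also 1 of the neighbours of the cluster, held 2912 ± 420 and 2861 ± 467.

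Of 22 genes of pore-forming proteins and of the response to damaged membranes, 10 were higher and 4 lower (median 0.27). Over all tested genes 34.2% were higher and 34.6% lower. Lgals3, whose product galectin-3 binds sugars exposed inside ruptured vesicles, rose from 12208 ± 1745 to 42520 ± 11114. Mlkl (154 ± 13.5 against 439 ± 134) and Gsdmd (1178 ± 112 against 2370 ± 152), which encode pore-forming or membrane-breaking proteins of cell death, also rose. Prf1, the perforin gene, was 6.11-fold, Trim16 1.76-fold and Tmem63a 1.39-fold lower.

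Mature dendritic cell genes were the list with the largest median of those set beside the members, at 2.07, with 23 of 25 higher and 2 lower. Over all tested genes 34.2% were higher and 34.6% lower, and earlier results of these data had shown the mature list to rise. Serpinb6b (637 ± 90.6 against 8233 ± 567), Stat4 (532 ± 64.5 against 5627 ± 599) and Il15ra (270 ± 15.0 against 2758 ± 606) rose most, and Cd83 (14237 ± 731 against 9537 ± 875) and Cd86 (5620 ± 903 against 4083 ± 567) fell. No gene of this list reached the log2 fold change of Apol10b, a member chosen on this contrast.

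**Figure D4:**
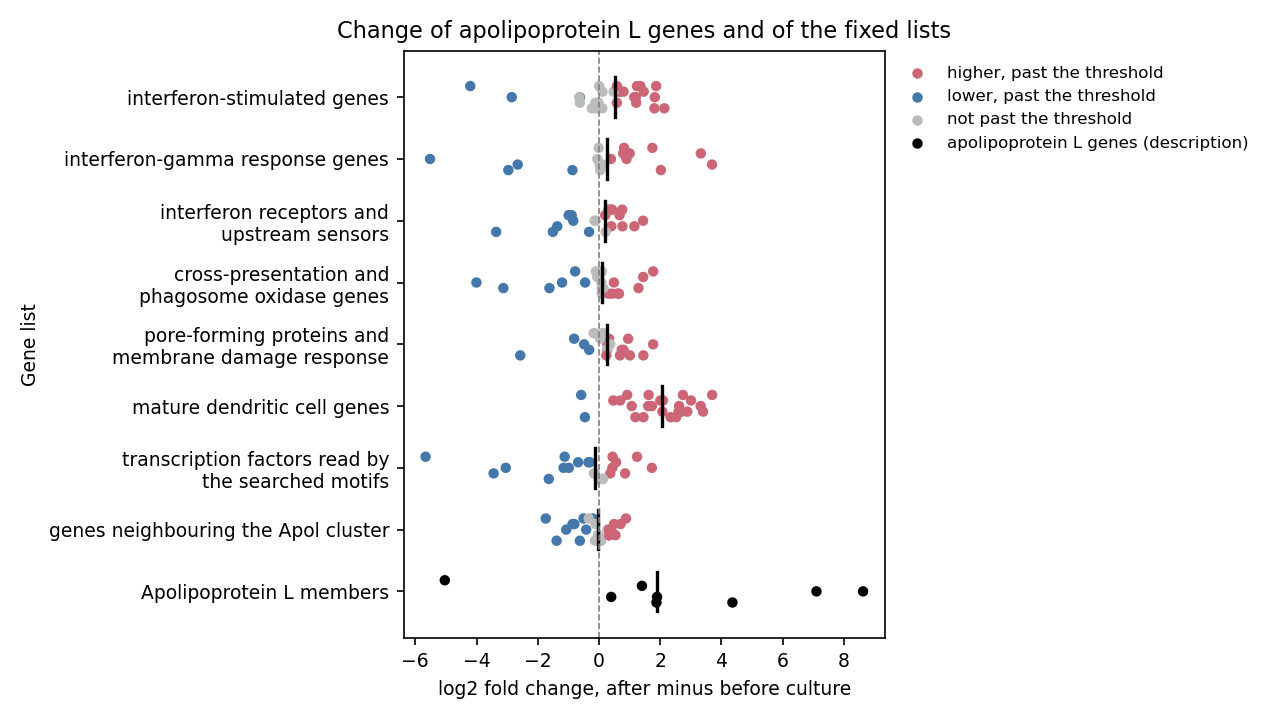
Each point is a gene, placed by its log2 fold change after against before culture (x axis) in its list (y axis), coloured by whether it passed the limma threshold. Black ticks are list medians and the dashed line is the median of all genes. Apol7c, Gm8221 and Apol8 (black points at 7.11, 8.63 and −5.04) lie outside most list genes.

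The genes whose 9 values followed those of Apol7c most closely were found among 11781 genes with a mean of at least 100. Likeness was the root mean square difference of the log2 values, each gene centred on its own mean, and its median over these genes was 3.54. The nearest were Serpinb9b, which encodes a serine protease inhibitor of the Serpinb9 group (0.38 log2 units), and Ahrr, the aryl hydrocarbon receptor repressor (0.44). Ido2, a tryptophan-degrading enzyme (0.54), Rnf152 (0.58) and Aif1l (0.64) followed. Serpinb9b went from 64.2 ± 19.3 to 7574 ± 562, Ahrr from 16.6 ± 6.84 to 1591 ± 257 and Rnf152 from 35.9 ± 9.26 to 2751 ± 580. For Apol9b the nearest were Orc1 (0.18), Atpaf1 (0.21), Arhgef4 (0.22), Slc25a35 (0.22) and Asb13 (0.22), whose means differed 1.35- to 1.49-fold between the groups. This likeness reflects mainly the step between the groups and is a description.

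Markers of cell types moved with the same contrast, in which 34.2% of all tested genes were higher and 34.6% lower. The cDC1 markers were read in every sample, with 8 of 11 lower and 3 higher after culture, and their summed level was 143423 to 172698 before and 32451 to 36273 after. Itgae, which encodes the sorted CD103, went from 18138 ± 1537 to 1727 ± 335, and Xcr1, a chemokine receptor of cDC1, from 5836 ± 781 to 114 ± 32.5. Batf3, Zbtb46 and Flt3 were the markers that were higher. All 10 endothelial markers were lower (summed level 26120 to 37902 before and 3387 to 4500 after), as were all 6 fibroblast markers (15611 to 28377 and 2206 to 4422) and 8 of 10 epithelial markers (26626 to 45696 and 4897 to 9354). Of 7 tested neutrophil markers 6 were lower and 1 higher (13106 to 22538 and 6905 to 14831). The sum after culture was mostly Mmp8, the marker that was higher (401 ± 93.4 against 9876 ± 3673), while S100a9 (1968 ± 716 against 6.15 ± 6.22) and Trem1 (5047 ± 896 against 43.2 ± 12.7) were far lower. Of 12 macrophage and monocyte markers 7 were lower and 1 higher (50528 to 77232 and 29860 to 53269). Of 7 markers of type 2 conventional dendritic cells 5 were lower and 1 higher (19691 to 27315 and 16603 to 29714). Sirpa, which did not pass (14134 ± 1937 against 18100 ± 4091), and Itgam, which was higher (1679 ± 442 against 3698 ± 1298), made up most of that sum after culture. Mgl2 (3857 ± 500.1 against 52.1 ± 25.9), Cd209a (755 ± 141 against 10.1 ± 4.42) and Clec10a (677 ± 116 against 144 ± 63.9) were lower. Of 8 T and NK cell markers 5 were lower (4546 to 5906 and 3556 to 4619), and of 6 B cell markers 2 were higher and 1 lower (3234 to 5752 and 3868 to 5052). Ly6g was at 0 in every sample after culture, and S100a9 and Cd209d in 1 sample each. In bulk RNA, fewer cells of a type and less RNA per cell cannot be told apart. The part of these other cells in the lower Apol8 and Apol6 levels, and in the levels of the other members, was not tested.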

How the data were processed

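RNA from lung dendritic cells selected for CD103 was sequenced by a company, per the labels. The submitters' processing notes name DESeq2 and GRCm38, and the aligner, counter, annotation, filters and strand setting are not given in the sources used here. The authors deposited normalized read counts per gene (a signal). All values (100%, within 1e-06) were whole multiples of 1 step per sample, so whole reads were recovered. The 3782 rows without a symbol (3.87 to 10.9% of reads) were left out. Samples were grouped by title.

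Genes with a mean of at least 10 were fitted as log2(value + 1) with limma 3.58.1 (R 4.3.3, group as only term, mean-variance trend, two-sided, Benjamini-Hochberg over 18202 genes, threshold 0.05). No molecular identifiers are known for these libraries, and limits set by read number cover counting error only. Members and lists were chosen with earlier results of these data known. Named list genes are up to 3 per direction with the largest change among those past the threshold whose groups do not overlap and whose mean reaches 100. Isg15, Ifit3 and the motif-reading factors were named beside these, and 1 gene that the rule names is not reported here. Alternatives were pseudocounts of 0.5 and 8, no filter, a mean of 50, TMM, upper quartile and quantile scaling, edgeR 4.0.16 and DESeq2 1.42.0 on recovered reads, replicate blocks and leaving out each sample. Shared windows, lengths and positions came from GENCODE M21, promoters from RefSeq GRCm38.p6, and upstream identity from a global alignment in Biopython 1.88. The script was tested on simulated counts.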

Additional observations from a re-analysis of the deposited data

Results flagged for a closer look

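In 138 groups of 4 or 5 values checked (70 named genes), 14 held a sample whose gap to the next value exceeded the 95% limit of Dixon's test, where chance gives about 1 in 20 groups.

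Among the members, Apol6 was at 9.10 in replicate 3 after culture and 0 in the other 3 samples, and Apol7a was at 0 in replicate 2 after culture against 2.28 to 2.73 in the others. Outside the members, Apol10a was at 1.12 in replicate 3 before culture, which is 1 read, and 0 in the others.

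Replicate 4 before culture stood apart for 7 other genes. It was the highest for Gbp4 (1205 against 587 to 704), Prf1 (863 against 421 to 489) and Serpinb9b (97.9 against 50.5 to 61.9). It was the lowest for Relb (2634 against 3094 to 3174), Jun (13895 against 18349 to 19112), Rpl8 (6118 against 9328 to 9800) and Arhgap39 (1431 against 1861 to 2005).

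Usp18 was at 309 in replicate 1 before culture against 410 to 441, and at 1632 in replicate 2 after culture against 1328 to 1357. Iigp1 was at 121 in replicate 3 after culture against 75.3 to 80.4, and Ciita at 1892 in replicate 4 after culture against 1391 to 1421.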

How the results depend on the processing

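Under 20 alternatives, the 21 counts of genes kept to within 1.5 times their value in 416 of 420 cases. Without a filter on low values, 2 members were lower (Apol6 joined Apol8) and 1 further Apol row, Apol11b, was higher. The count of interferon-stimulated genes lower after culture was 5 with the replicate block by library name and ran from 2 to 6 when 1 sample was left out. With a mean of at least 50, Apol7b, Apol9a and Apol9b were no longer tested, and 4 members were higher. Apol9b passed the threshold with quantile normalization (log2 fold change 0.56) and in no other alternative. With a pseudocount of 8 the log2 fold changes of Apol8, Apol9a and Gm8221 became −4.40, 1.24 and 7.23. The other 154 of 157 member values moved by less than 1 SD between replicates. Without replicate 4 before culture, 6 members were higher and 1 lower.

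The labels carry a number in the sample title and another in the library name. Same-numbered samples correlated in their deviations at −0.21 to 0.08 by title and at 0.04 to 0.35 by library name, so neither numbering met the limit of 0.1 in every pair. By library name 7 of 8 samples correlated best with their own number, which is a hint from the data only. The replicate block by title, which leaves out replicate 5 before culture, called 11656 genes, against 12123 for the same samples with no block. That by library name, which leaves out replicate 2 before culture, called 12865, against 11949 for the same samples with no block. All 9 samples gave 12524, and the member counts of 6 higher and 1 lower were the same in both. Depth limits Apol6, Apol7a, Gm8221 before culture and the further Apol rows.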
